A study of Bactrocera dorsalis with 3 samples.

Results

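Rab1a, Rab5b and Rab40 are 3 of the 5 genes named as Rab GTPases among the 13489 gene models measured in Bactrocera dorsalis, the oriental fruit fly. They were chosen by gene identifier with their values already known, because they took separate courses over the embryo ages sampled. Their levels and differences are therefore given as descriptions, without a test. The other named Rab genes, Rab7 and Rab35, are used for comparison. RNA came from embryos 0-1 hpo (hours post-oviposition, the time since egg laying), 2-4 hpo and 5-8 hpo old, with 1 library for each age. The labels name no strain, genotype or treatment for any of them, and the sources used here do not say how many embryos went into a library. Reads assigned to genes ranged from 65069185 to 74817640 per library. Age labels were not checked against stage markers, because informative names were found for only 76 models. A difference between ages is thus a difference between 2 libraries, with no replicate to check it.

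Rab proteins are small GTPases that switch between a GDP-bound and a GTP-bound form and, in the latter, recruit effector proteins to a particular membrane. Rab1 acts in transport from the endoplasmic reticulum to the Golgi apparatus, and Rab5 in endocytosis and the fusion of early endosomes. Rab40 proteins are unusual members of the family. In vertebrates they carry a SOCS box, through which they join a cullin-based ubiquitin ligase. Early fly embryos rely at first on RNA loaded by the mother, and transcription from the embryo's own genome takes over later. In Drosophila the dividing nuclei share a common cytoplasm until membrane grows in between them at cellularisation, a step that draws heavily on vesicle transport.

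Rab1a and Rab5b were alike in size and structure, and Rab40 had fewer exonic bases in a longer span. Rab1a (gene 105223128) was placed by the deposited tables on the plus strand of scaffold NW_011876264.1, between positions 36839 and 40579, with 1664 exonic bases in a span of 3741. Rab5b (gene 105231229) was placed on the minus strand of NW_011876394.1, between 2864234 and 2868117, with 1688 exonic bases in 3884. Rab40 (gene 105233163) was placed on the minus strand of NW_011876119.1, between 187331 and 199243. Its exons covered 1046 bases of a span of 11913, or 8.78%, against 44.5% for Rab1a and 43.5% for Rab5b. The sources used here do not name the genome build of these positions. No other measured model overlapped any of the 3 genes on either strand. How reads that align to several places were treated is not stated.

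Rab1a was the most abundant of the 5 named Rab transcripts at every age, and its level at 2-4 hpo was near that in newly laid eggs. The libraries of increasing age held 21178, 22661 and 85016 reads of it. On the FPKM scale, which divides fragments by transcript length and library total, these were levels of 187, 209 and 683. The first 2 ages were close and the last stood well apart. The level at 2-4 hpo was 1.12-fold that at 0-1 hpo (1.10 to 1.14), where the range is the 95% exact interval from the read counts and covers counting error only. From 2-4 to 5-8 hpo the level became 3.26-fold higher (3.22 to 3.31). Rab1a stood at rank 443 by FPKM among the 7046 genes with FPKM of 1 or more at 0-1 hpo, at rank 380 of 7114 at 2-4 hpo and at rank 136 of 7773 at 5-8 hpo.

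Rab5b took a course with its lowest point in the middle. In order of age its reads numbered 8063, 2869 and 12554, and its FPKM was 70.1, 26.1 and 99.4. The highest level was at 5-8 hpo and the lowest at 2-4 hpo, and the counting intervals of the 3 levels did not overlap (68.6 to 71.6, 25.2 to 27.1 and 97.7 to 101). The level was 2.68-fold lower at 2-4 hpo than in newly laid eggs (2.57 to 2.80) and then 3.81-fold higher at 5-8 hpo (3.65 to 3.96). At 5-8 hpo it was 1.42-fold its starting level (1.38 to 1.46). Its rank by FPKM among detected genes went from 1608 to 3345 and then to 949.

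Rab40 also had its lowest level at 2-4 hpo, but it stayed below its starting level. Its reads numbered 8926, 1654 and 4184, and its FPKM was 125, 24.3 and 53.5. Newly laid eggs held the most Rab40 RNA relative to the library, and the counting intervals were again separate (123 to 128, 23.1 to 25.5 and 51.9 to 55.1). Rab40 was 5.15-fold lower at 2-4 hpo (4.89 to 5.43) and 2.20-fold higher at 5-8 than at 2-4 hpo (2.08 to 2.33). Its level at 5-8 hpo was 2.34-fold below that at 0-1 hpo (2.26 to 2.43). Among detected genes its rank by FPKM was 767, 3503 and 1844.

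**Figure D1:**
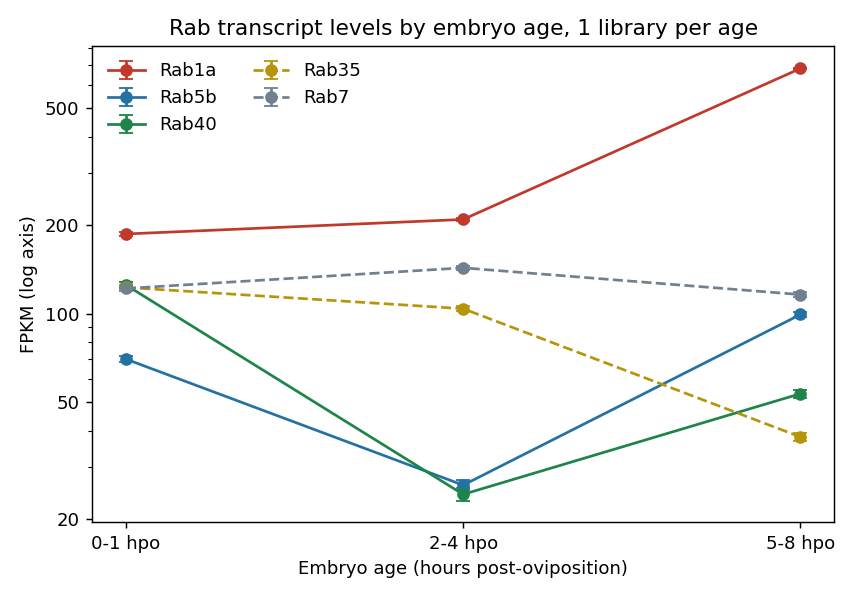
FPKM on a log axis of the 5 named Rab genes at 3 embryo ages; points are the value of 1 library, bars the 95% counting interval of its reads, solid lines Rab1a, Rab5b and Rab40 and dashed lines Rab7 and Rab35. Rab1a reaches 683 at 5-8 hpo, while Rab5b and Rab40 meet near 26.1 and 24.3 at 2-4 hpo and part again to 99.4 and 53.5.

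The balance between the 3 transcripts shifted with age. These ratios compare FPKM levels within 1 library, so they do not depend on how libraries are scaled to each other. Rab1a stood at 2.66-fold the level of Rab5b at 0-1 hpo (2.60 to 2.73), at 8.01-fold at 2-4 hpo (7.71 to 8.33) and at 6.87-fold at 5-8 hpo (6.74 to 7.00). Against Rab40 the excess of Rab1a was larger at each later age, at 1.49-fold (1.45 to 1.53), 8.61-fold (8.19 to 9.06) and 12.8-fold (12.4 to 13.2). Of the FPKM summed over the 3 genes, Rab1a made up 48.9% at 0-1 hpo, 80.6% at 2-4 hpo and 81.7% at 5-8 hpo.

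Rab5b and Rab40 exchanged places. At 0-1 hpo the FPKM of Rab40 was 1.79-fold that of Rab5b (1.73 to 1.84). At 2-4 hpo the levels were close, with Rab5b 1.07-fold higher (1.01 to 1.14), and at 5-8 hpo Rab5b was 1.86-fold higher (1.80 to 1.93). Rab40's share of the summed FPKM of the 3 genes was 32.8%, 9.36% and 6.40%, and that of Rab5b 18.3%, 10.1% and 11.9%.

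Each step of the courses was also set against all genes. A gene entered a comparison if its FPKM reached 1 in either of its libraries, and a difference of at least 2-fold was counted on FPKM + 1. From 0-1 to 2-4 hpo Rab5b and Rab40 were at least 2-fold lower, 2 of the 3 genes, where 23.5% of the 7310 genes compared were. Rab40 was also at least 4-fold lower, where 8.28% of genes were, and its log2 ratio was the 387th lowest of all. Rab5b had the 1200th lowest ratio. The ratio of Rab1a lay above that of 68.3% of genes. The median gene was lower at 2-4 hpo, with a log2 ratio of -0.23 over the 6563 genes with FPKM of 1 or more in every library. This median depends on how libraries are scaled to each other, while values relative to it do not. Relative to that median the log2 ratios of plain FPKM were 0.40 for Rab1a, -1.19 for Rab5b and -2.13 for Rab40.

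From 2-4 to 5-8 hpo 3 of the 3 genes were at least 2-fold higher, where 30.3% of the 8142 genes compared were. None of the 3 reached 4-fold, where 13.8% of genes did. Rab5b had the largest of the 3 differences, with a log2(FPKM + 1) ratio of 1.89 that exceeded those of 85.2% of genes. For Rab1a the ratio was 1.70, above 82.8% of genes, and for Rab40 1.11, above 71.8%. The order of the 3 genes in this step thus differed from the order of their levels, in which Rab1a was highest at both ages.

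Over the whole interval the 3 genes ended in different directions. Rab1a was at least 2-fold higher at 5-8 than at 0-1 hpo, 1 of 3 genes against 23.8% of the 8148 genes compared. Rab40 was at least 2-fold lower, 1 of 3 against 27.2%. Rab5b was within 2-fold of its starting level. The median gene had a log2 ratio of -0.37 here, which again depends on the scaling. Relative to that median, the values on plain FPKM were 2.24 for Rab1a, 0.87 for Rab5b and -0.86 for Rab40. These comparisons share libraries, so the 3 sets of values are not independent of each other.

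**Figure D2:**
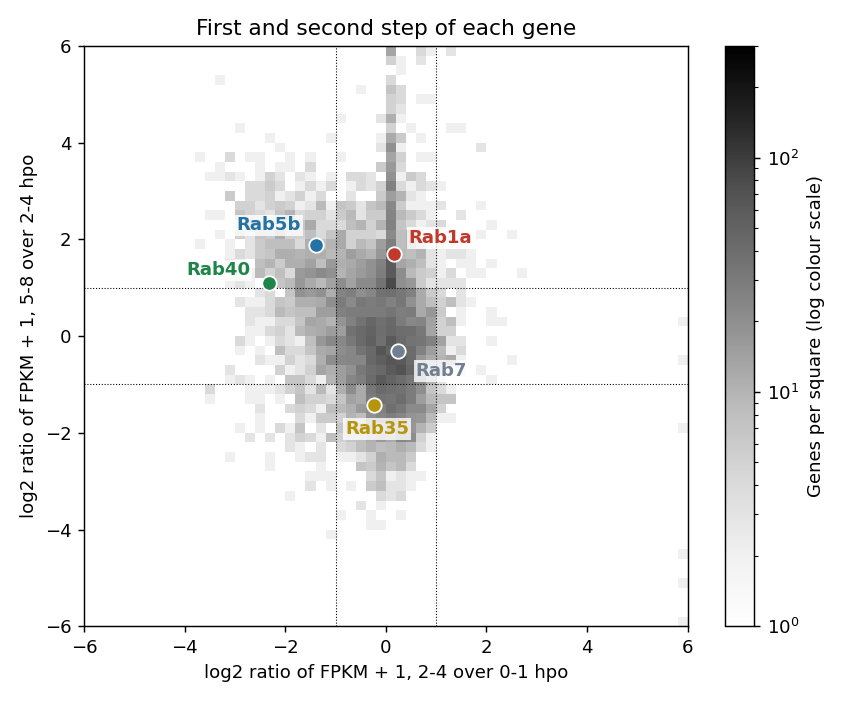
Log2 ratio of FPKM + 1 from 0-1 to 2-4 hpo (horizontal axis) against that from 2-4 to 5-8 hpo (vertical axis) for the 8230 genes with FPKM of 1 or more in any library; grey squares count genes on a log colour scale, values beyond 6 are drawn at 6, and dotted lines mark 2-fold. Rab5b and Rab40 lie in the upper left field with 835 genes, and Rab1a lies in the upper middle field with 1503.

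By both steps, Rab5b and Rab40 shared a course with 10.1% of genes. Of 8230 genes with FPKM of 1 or more in any library, 835 were at least 2-fold lower in the first step and at least 2-fold higher in the second. Their median FPKM was 29.2, 6.57 and 32.2 at the 3 ages, below the levels of Rab5b and Rab40 at each age. Both steps include the 2-4 hpo library, so a course of this kind rests on that single library. Within the 835 genes the end points varied: 645 were within 2-fold of their starting level at 5-8 hpo, 118 at least 2-fold above it and 72 at least 2-fold below it. Rab5b belonged to the 645 and Rab40 to the 72. Rab40 had the 53rd lowest ratio of 5-8 to 0-1 hpo in the group, and Rab5b the 256th highest. In the second step Rab40 lay near the 2-fold limit, with the 796th largest ratio of the 835, and Rab5b had the 427th.

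Rab1a was one of 1503 genes, 18.3%, that stayed within 2-fold in the first step and were at least 2-fold higher in the second. Most genes of this course were scarce in eggs: their median FPKM was 0.548, 0.711 and 13.9 in order of age. A gene with FPKM below 1 at both 0-1 and 2-4 hpo cannot differ 2-fold on FPKM + 1. Such genes met the first condition by construction, so the 18.3% is not a share of genes with a measured steady first step. Rab1a was already abundant before the second step, at rank 16 of the 1503 by FPKM at 0-1 hpo, rank 12 at 2-4 hpo and rank 19 at 5-8 hpo. On FPKM + 1 its second step was the 812th largest of the group, with a group median of 3.51-fold against 3.25-fold for Rab1a. Adding 1 shrinks the ratios of scarce genes most, so this place near the middle may depend on it. The rank of the second step on plain FPKM was not computed. A different ratio, that of 5-8 to 0-1 hpo, was ranked on plain FPKM, and Rab1a's was the 1044th highest of the 1503. In that ranking a gene with FPKM 0 at 0-1 hpo stands above every gene with a value there.

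The other named Rab genes took courses of their own. Rab7, a GTPase of late endosomes and lysosomes, had FPKM 122, 143 and 116 and stayed within 2-fold in both steps. Its FPKM was computed with a length 0.909 times the listed one, which affects its level but not its ratios. Rab35, which in vertebrates acts in recycling from endosomes to the cell surface, had FPKM 123, 104 and 38.1. It was 1.18-fold lower at 2-4 than at 0-1 hpo (1.15 to 1.21) and 2.73-fold lower at 5-8 than at 2-4 hpo (2.64 to 2.83). In that second step Rab35 was lower while Rab1a, Rab5b and Rab40 were higher.

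By FPKM level the order of the 5 named Rab genes was Rab1a, Rab40, Rab35, Rab7 and Rab5b at 0-1 hpo. The middle 3 were close: Rab40 was 1.02-fold Rab35 (0.992 to 1.05) and Rab35 was 1.01-fold Rab7 (0.984 to 1.03), so neither pair could be separated beyond counting error on the deposited scale. With the listed length of Rab7 in place of the shorter one, an alternative chosen after seeing the data, Rab35 was 1.11-fold Rab7 (1.08 to 1.14) and the pair was separated. The order of the 5 genes was the same with either length at each age. At 2-4 hpo the order was Rab1a, Rab7, Rab35, Rab5b and Rab40, and at 5-8 hpo Rab1a, Rab7, Rab5b, Rab40 and Rab35. Neighbours in the order at these 2 ages differed by more than counting error with either length. The closest pair on the deposited scale was Rab5b and Rab40 at 2-4 hpo, at 1.07-fold. With the listed length it was Rab7 and Rab5b at 5-8 hpo, at 1.06-fold (1.04 to 1.09). Rab1a's share of the summed FPKM of the 5 named genes was 29.8%, 41.3% and 69.0%. Other Rab genes may be among the models without an informative name, so this order and these shares cover the named genes only.

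Named genes nearest in course to each Rab gene were found, whether or not they were close. The measure was the distance between profiles of log2(FPKM + 1), each centred on its mean over the 3 libraries. The search covered the named genes that reached FPKM 10 at any age, 58 for each Rab gene. Akt1, a protein kinase of insulin signalling, was nearest to Rab5b, with a distance of 0.21 on the log2 scale. Its FPKM was 109, 47.7 and 146, so it shared both the low middle value and the end above the start. Of all 6535 genes at that level, named or not, 47 lay nearer to Rab5b than Akt1 did. The next named genes were Ygr4 at 0.53, Adf1 at 0.76, Cs052 at 0.87 and Cg050 at 0.91.

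Rab1a and Rab40 had no named gene as near. T53i1 was nearest to Rab1a, at a distance of 0.51 with FPKM 31.2, 32.6 and 72.8, and 222 of all genes lay nearer. Pihd2 (0.80), Mt12b (0.80), ND4 (0.93) and CYTB (0.97) followed, the last 2 encoded by the mitochondrial genome. ND4 and CYTB differed from Rab1a in which step was larger. ND4 was 2.59-fold higher in the first step and 1.55-fold in the second, and CYTB 2.06-fold and 1.27-fold. For Rab1a these ratios were 1.12 and 3.26. Of all genes, 768 lay nearer to Rab1a than ND4 did, and 842 nearer than CYTB. For Rab40 the nearest were Adf1, a DNA-binding regulator in Drosophila, at 0.67, and CH60, a mitochondrial chaperonin, at 0.69. Adf1 had FPKM 31.5, 11.0 and 22.6, and CH60 had 257, 35.9 and 155. Zn-CuSOD (0.86), DNAJ1 (0.93) and Cg050 (0.93) followed. Zn-CuSOD, with FPKM 41.8, 12.2 and 11.2, was not higher at 5-8 than at 2-4 hpo, where Rab40 was. Of all genes, 315 lay nearer to Rab40 than Adf1 did, and 531 nearer than Zn-CuSOD. Among themselves, Rab1a and Rab5b lay 1.20 apart, Rab5b and Rab40 1.21, and Rab1a and Rab40 2.31. A likeness over 3 libraries describes these libraries only.

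**Figure D3:**
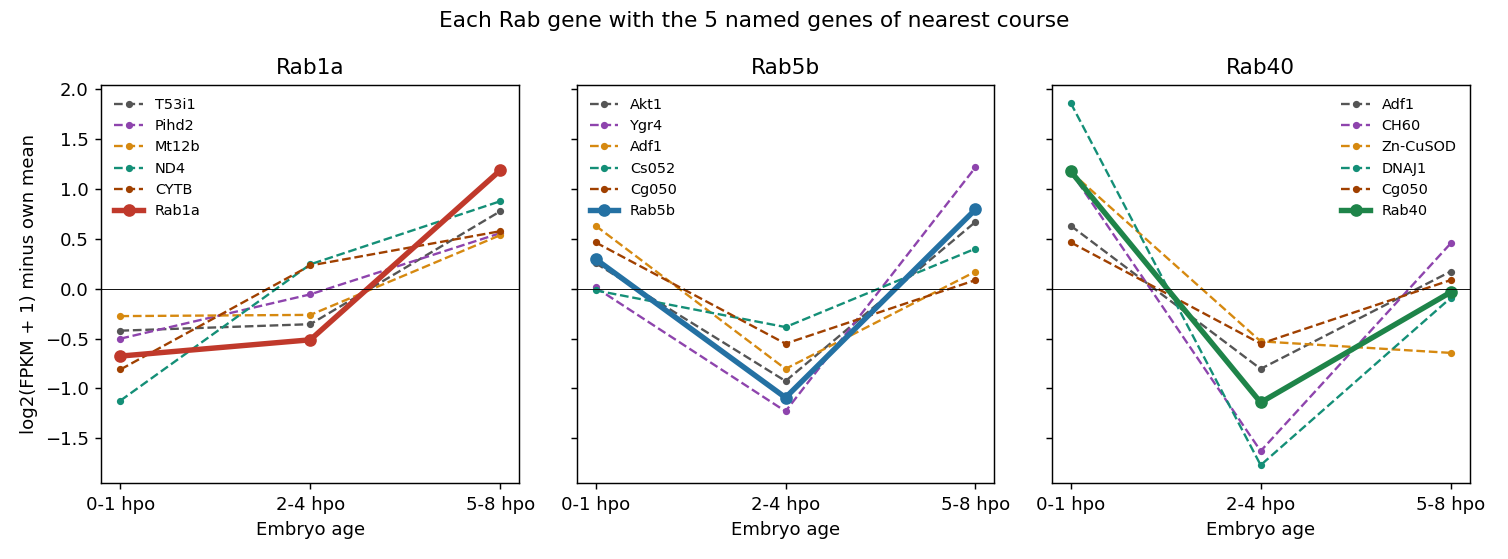
Log2(FPKM + 1) minus each gene's own mean over the 3 libraries (vertical axis) by embryo age, for each Rab gene (thick line) and the 5 named genes of nearest course (dashed lines). Akt1 runs close to Rab5b (distance 0.21), while the nearest named genes of Rab1a and Rab40 lie 0.51 and 0.67 away.

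The measured models next to the 3 genes did not all share their courses. Rab1a has LOC105223127 on its 5′ side, on the same strand, 682 bases away. That gene had FPKM 62.9, 22.9 and 67.7 and so was lowest at 2-4 hpo, where Rab1a was not. On the other side LOC105223152, on the opposite strand at 294 bases, stayed at or below FPKM 0.226, with 16 to 59 reads per library. Rab5b is flanked at 7305 bases by LOC105231226, which had 8 to 40 reads per library. On its 5′ side, at 75966 bases, LOC105231230 had FPKM 13.1, 15.2 and 2.40, lowest at the age at which Rab5b was highest.

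Rab40 has LOC105233164 on its 5′ side, only 528 bases away and on the opposite strand, so the pair point away from each other. The FPKM of that gene was 29.5, 20.6 and 26.1, a much flatter course than the 125, 24.3 and 53.5 of Rab40. LOC105233162, on the 3′ side at 8981 bases and on the same strand, had FPKM 36.7, 22.2 and 60.0. Of the 6 models flanking the 3 genes, 4 had their lowest value at 2-4 hpo, those beside Rab1a and those beside Rab40, where 31.2% of the 8230 genes with FPKM of 1 or more in any library did. LOC105223152 and LOC105231226 are not among the latter, since their FPKM reached at most 0.226 and 0.0571. The flanking models and the 8230 genes were thus not chosen by the same filter. The low value of LOC105223152 rests on 16 reads, against 38 at 0-1 hpo and 59 at 5-8 hpo. In all, 5 of the flanking models are also next to the same Rab gene in the RefSeq assembly ASM2337382v1, and LOC105223152 beside Rab1a is not.

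**Figure D4:**
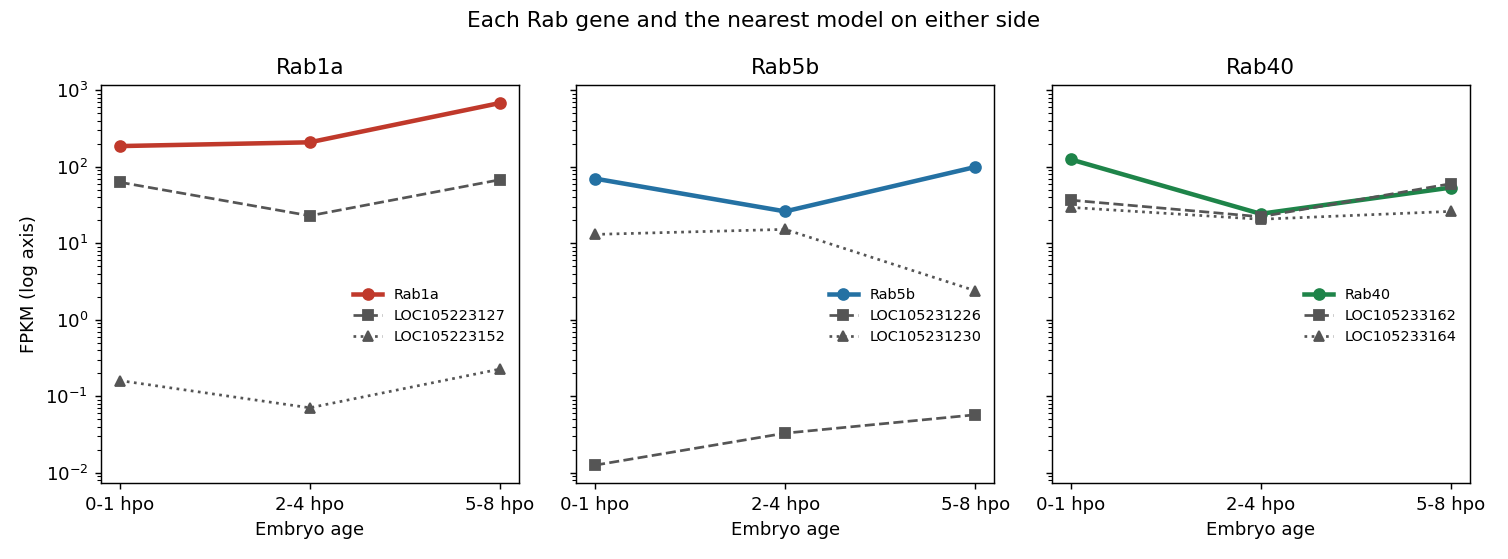
FPKM on a log axis by embryo age for each Rab gene (thick line) and the nearest measured gene model on either side of it (dashed line with squares at lower coordinates, dotted line with triangles at higher coordinates), 1 library per point. LOC105223127 beside Rab1a is lowest at 2-4 hpo, and LOC105233164 beside Rab40 stays between 20.6 and 29.5.

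Partners of the Rab cycle could not be placed beside these courses. A list of 47 symbols covered regulators and effectors of Rab proteins, coat proteins, other small GTPases and partners of the Rab40 ligase, and 0 of them matched a symbol or synonym of a measured gene. Such genes may be among the models known by identifier alone and were not analysed here. All values above are shares of the poly-A-selected RNA in whole embryos. Fewer cells with a transcript and less RNA per cell cannot be told apart in such samples, nor can a change in the amount of an RNA and a change in its poly-A tail.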

How the data were processed

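Per the labels' protocols, RNA was extracted with Trizol, and messenger RNA was then selected on poly-T beads. HISAT2 2.0.4, an aligner, and HTSeq 0.9.1, a read counter, are named in the submitters' processing notes. The sources used here do not state the strand setting, the genome build or the annotation. The authors deposited whole-number read counts per gene for each library and 1 table of FPKM values. For the 3 members, the length implied by FPKM, count and library total equalled the listed exonic length (the tables also hold scaffold, strand and positions, per the file headers). Counts were not normalised beyond the library total. Tables for 0-1 and 2-4 hpo list only genes with reads, and a gene not listed there had FPKM 0 and was taken as 0 reads.

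Gene names came from a RefSeq table of assembly ASM2337382v1, used for names and neighbours only. It matched 11887 of 13489 identifiers and gave an informative symbol or synonym for 76. Members, lists and rules were chosen with earlier results of these data known. Named are the 3 members, the other genes named Rab, the nearest 5 named genes by course, the flanking models, and a list of Rab partners. The planned search for similar proteins was not made, since no protein sequences were used here. Folds are ratios of FPKM with the 95% exact conditional binomial interval of both counts, and counts of genes past 2-fold use FPKM + 1. With 1 library per age no p-value was computed. A count of 0 allows up to 3 reads, or 0.0401 to 0.0461 RPM (reads scaled to the library total). Scripts used Python 3.11.15, NumPy 2.4.6, pandas 2.3.3 and SciPy 1.17.1, and were tested on simulated data. Alternatives were TPM, median-of-ratios scaling, RPM, other pseudocounts and other filters.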

Additional observations from a re-analysis of the deposited data

How the results depend on the processing

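All 36 alternative values for the 9 ratios of Rab1a, Rab5b and Rab40 kept their direction, those with RPM by construction. On the TPM scale the ratios of 2-4 to 0-1 hpo were 1.05 for Rab1a, 0.349 for Rab5b and 0.182 for Rab40, and after median-of-ratios scaling they were 1.29, 0.429 and 0.223, in place of 1.12, 0.373 and 0.194. For Rab1a from 2-4 to 5-8 hpo the same scalings gave 3.17 and 3.18 in place of 3.26. From 0-1 to 5-8 hpo TPM gave 3.33, 1.29 and 0.388 for Rab1a, Rab5b and Rab40, and median-of-ratios scaling gave 4.11, 1.59 and 0.480, in place of 3.66, 1.42 and 0.427, so that Rab1a passed 4-fold. These shifts multiply every gene of a library alike, by construction, and moved the median log2 ratio of all genes by up to 0.20. From 0-1 to 2-4 hpo this median was -0.33 on TPM and -0.03 after median-of-ratios scaling, in place of -0.23. From 0-1 to 5-8 hpo it was -0.51 and -0.20, in place of -0.37. The other 22 values, with RPM, a pseudocount of 1 or these scalings, stayed within the counting interval. Those with RPM could not differ from the FPKM ratios, because the length of a gene cancels. All 30 alternative counts of genes past 2-fold were within 1.5 times the reported count, and those without a filter are the same by construction. No paired analysis was possible because every age was represented by a single library. Counting error was small beside the steps described, but differences between batches of embryos could not be measured.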
